A study of Mus musculus with 8 samples.

Results

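The 6 genes Ctse, Cwh43, Vsig1, Tff1, Tff2 and Wfdc2 were grouped as gastric-type and foregut epithelial genes. These genes were followed by their reads in normal and cancer cells of the mouse small intestine. They were selected by symbol from the 13420 genes of the read count table, and all 6 were among the 5264 genes that passed the filter on low counts. The selection was made on these data, because Ctse and Cwh43 were already known to be higher in mixed wild-type (WT) cells and Tff1 and Wfdc2 to be high in the cancer cells. Levels of the 6 genes in those comparisons are therefore given as a description, without a test. Mixed against pure cancer cells did not enter the selection and was tested.

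WT small intestine organoids carried the mTmG reporter, which labels membranes with tdTomato, on a C57BL/6 background. The alleles of the cancer line included Villin-CreERT2, Apcfl/fl and Tr53fl/R172H (the p53 gene Trp53) on a C57BL/6 (F6) background and was labelled with Dendra2. In this line the Villin promoter confines the recombinase to intestinal epithelium. Organoids were grown pure, or mixed at 2 parts WT to 1 part cancer cells, and live cells were sorted by color on day 3 after mixing. Bulk libraries, 2 in each of the 4 groups, are named by the codes in their titles. A01 and A05 came from WT cells grown pure and A02 and A06 from WT cells grown mixed. A03 and A07 came from cancer cells grown pure and A04 and A08 from cancer cells grown mixed. All groups were grown in the same medium with EGF, Noggin and R-spondin1. The sources do not say whether libraries of a group came from separate cultures, nor which libraries came from cultures grown together. The p-values therefore measure the spread between libraries, which may be technical. The animals behind the sorted cells are not named by library, and organoids are grown from epithelium, without stroma.

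The stomach lining is built by surface mucous, neck, chief and parietal cells, and the gut behind it by enterocytes, goblet, Paneth and endocrine cells. The identity of the intestine is held by the transcription factors CDX1 and CDX2, and gastric genes are switched on in intestinal epithelium in some states of injury and tumor growth. Trefoil factors are small secreted peptides that act with mucus to protect and repair the surface, TFF1 in gastric surface cells, TFF2 in neck and pyloric gland cells and TFF3 in goblet cells.

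The shallowest library was A02 (mixed WT, 73109 reads) and the deepest A04 (mixed cancer, 4733121 reads). Levels are given as CPM, the reads of a gene scaled to a common library size with the TMM factors of edgeR. A single read stood for 13.1 CPM in A02, and 26.1% of the tested genes had no read there. Reads were counted at the 3' end and include amplification copies, so intervals on counts cover counting error only. All 11 epithelial markers were in the table, and Epcam lay between 268 and 933 CPM in the 8 libraries. In both cancer groups Cdx1 was at or near 0, with 0 reads in the pure libraries and 4 in all in the mixed ones. Of 6 immune markers, Ptprc, Cd3e, Cd79a and Lyz2 are not listed, and of 8 stromal and endothelial markers, only Col1a1 and Vim are listed, with at most 13 reads in a library.

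Ctse encodes cathepsin E, an intracellular aspartic protease of gastric surface cells. The gene lies on chromosome 1 (GRCm38, 131638306 to 131675505, plus strand) and overlaps no other annotated gene. It had 7.32 and 3.37 CPM in the pure WT libraries (8 and 6 reads) and 144 and 177 CPM in the mixed WT libraries (11 and 78 reads). Both mixed WT libraries thus lay far above both pure WT libraries. Ctse reads came to 15.7 and 108 CPM in the pure cancer libraries (3 and 36 reads) and to 73.0 and 104 CPM in the mixed cancer libraries (373 and 20 reads). In group means, WT cells went from 5.35 ± 2.79 CPM pure to 160 ± 23.0 CPM mixed, and cancer cells from 61.7 ± 65.1 to 88.4 ± 21.8 CPM (SD, n = 2 each). Mixed WT cells were highest of the 4 groups, above all cancer libraries, pure WT cells were lowest, and the neighbours pure and mixed cancer cells overlapped. The log2 fold change from pure to mixed WT was 4.96 (SE 0.82), where 39 of all tested genes, or 0.741%, passed an adjusted p of 0.05 (edgeR) and are termed called. The 11 reads of A02 carried only 3 different molecule barcodes, and the 78 reads of A06 carried 33. In barcode counts the log2 fold change was 3.79.

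Cwh43 encodes a membrane protein that takes part in fitting lipids to GPI anchors, which hold proteins on the cell surface. Its gene is on chromosome 5 (73406075 to 73453435, plus strand). The pure WT libraries had 2.75 and 3.37 CPM (3 and 6 reads), and the mixed WT libraries 65.5 and 109 CPM (5 and 48 reads). Cancer libraries held 15.7 and 71.8 CPM when pure (3 and 24 reads) and 37.2 and 93.4 CPM when mixed (190 and 18 reads). The order of group means was that of Ctse, with 87.1 ± 30.6 CPM in mixed WT, 65.3 ± 39.7 in mixed cancer, 43.8 ± 39.7 in pure cancer and 3.06 ± 0.443 in pure WT cells (SD, n = 2). Mixed WT, mixed cancer and pure cancer cells overlapped as neighbours, and only pure WT cells stood apart. From pure to mixed WT the log2 fold change was 4.84 (SE 0.89). As with Ctse, few molecules stood behind it in A02, whose 5 reads carried 1 barcode. Over the 8 libraries the log2 CPM of Cwh43 followed that of Ctse with a Pearson r of 0.97 and a Spearman rho of 0.88 (on CPM), a description over libraries that share groups and differ in depth.

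Vsig1 encodes an adhesion protein of the immunoglobulin superfamily found at junctions of gastric epithelium. Its gene is on chromosome X (140907608 to 140939472, plus strand). The pure WT libraries had 2.75 and 19.7 CPM (3 and 35 reads) and the mixed WT libraries 26.2 and 70.2 CPM (2 and 31 reads). The pure cancer libraries had 36.7 and 18.0 CPM (7 and 6 reads) and the mixed cancer libraries 31.3 and 88.2 CPM (160 and 17 reads). Mixed WT lay above pure WT in both libraries, but by a margin smaller than the gap between the pure WT libraries. Means fell in the order mixed cancer (59.7 ± 40.2 CPM), mixed WT (48.2 ± 31.1), pure cancer (27.3 ± 13.3) and pure WT (11.2 ± 11.97, SD, n = 2), and each group overlapped with the next. The log2 fold change from pure to mixed WT was 2.21 (SE 0.90). It was 1.07 without mixed WT library A06 and 4.25 without pure WT library A05.

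The 250 bases before the transcription start are shown for Cwh43 and Vsig1, whose CPM was above both pure WT libraries in both mixed WT libraries (RefSeq, GRCm38.p6, plus strand). The CPM of Wfdc2 was so too, but its sequence is not printed. RefSeq promoters were matched for 3 of the 6 genes, Cwh43, Vsig1 and Wfdc2, and capitals mark the only match among the motifs searched. The Wfdc2 window (chr2:164562465-164562714) belongs to the first of 2 RefSeq entries and lies within the annotated gene span (164562413 to 164568510).
Cwh43, chr5:73405828-73406077: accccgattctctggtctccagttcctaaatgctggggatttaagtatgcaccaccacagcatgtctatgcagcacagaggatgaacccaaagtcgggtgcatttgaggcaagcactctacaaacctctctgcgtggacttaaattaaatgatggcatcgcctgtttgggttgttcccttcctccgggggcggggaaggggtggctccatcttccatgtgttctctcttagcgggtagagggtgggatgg
Vsig1, chrX:140907358-140907607: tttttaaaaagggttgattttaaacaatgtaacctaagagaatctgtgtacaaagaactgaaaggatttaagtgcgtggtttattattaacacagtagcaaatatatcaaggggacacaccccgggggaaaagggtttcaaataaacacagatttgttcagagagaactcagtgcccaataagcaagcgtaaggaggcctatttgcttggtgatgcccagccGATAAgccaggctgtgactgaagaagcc
The motifs searched on both strands were TATAAA (a core promoter box, in 12.4% of 32851 promoters of this length), TGANTCA (AP-1, 6.75%), CTTTGA (TCF/LEF, 13.8%), GATAA (GATA factors, 22.6%) and TTTATNG (CDX, 9.81%). These letter strings do not overlap one another in the 3 windows. The match in Vsig1 is a GATAA at 28 to 24 bases before the start, and neither the Cwh43 nor the Wfdc2 window held any of the 5 strings. GC content was 52.8% in the Cwh43, 41.2% in the Vsig1 and 64.8% in the Wfdc2 window.

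**Figure D1:**
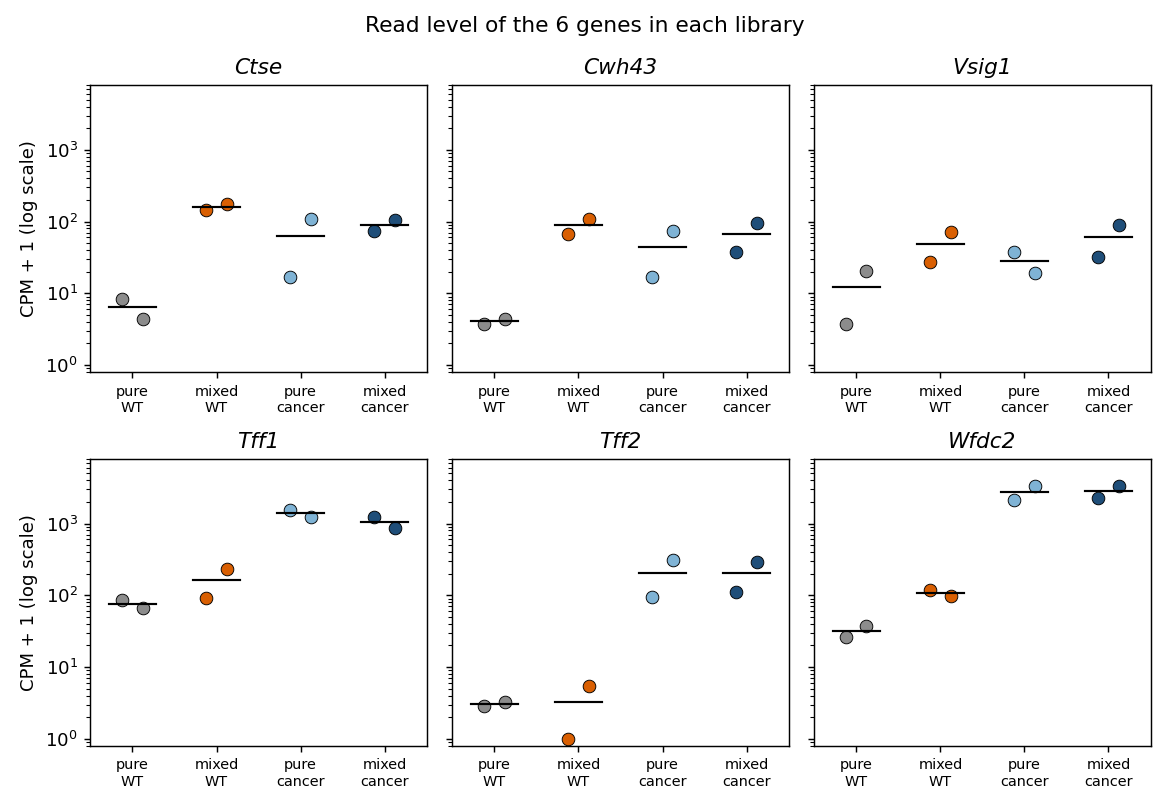
Level of each of the 6 genes as CPM + 1 on a log axis by group, where each point is a library and the line is the mean of 2. Ctse and Cwh43 are lowest in pure WT cells and reach cancer-cell levels in mixed WT cells, whereas Tff1, Tff2 and Wfdc2 are high in the 4 cancer libraries.

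Tff1 encodes the trefoil peptide of gastric surface mucous cells. It lies on chromosome 17 (31161395 to 31165277, minus strand), where the annotation also places Gm15318 over it, so reads of the overlap could not be attributed if strand was not used in counting. Pure WT libraries had 84.2 and 64.6 CPM (92 and 115 reads), mixed WT libraries 91.8 and 233 CPM (7 and 103 reads). Pure cancer libraries had 1564 and 1245 CPM (298 and 416 reads), mixed cancer libraries 1211 and 866 CPM (6191 and 167 reads). Every cancer library lay above every WT library. The group means fell in the order pure cancer (1405 ± 226 CPM), mixed cancer (1039 ± 244), mixed WT (163 ± 100) and pure WT (74.4 ± 13.8, SD, n = 2), with no overlap between neighbours. The gap between pure and mixed WT cells was narrow, since A02 with 7 reads was close to the pure libraries. The log2 fold change upon mixing of WT cells was 1.25 (SE 0.48), and 0.22 without library A06.

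Tff2 encodes the trefoil peptide of gastric neck and pyloric gland cells, and lies next to Tff1 (31141049 to 31144282, minus strand). Cancer cells had 94.5 and 311 CPM in the pure libraries (18 and 104 reads) and 111 and 290 CPM in the mixed ones (566 and 56 reads). In WT cells it was near the detection limit, with 2 and 4 reads in the pure and 0 and 2 reads in the mixed libraries. The 2 pooled mixed WT reads gave 1.85 times the pure WT level (95% counting interval 0.183 to 10.3), so a change upon mixing was not detectable at this depth. Means were 203 ± 153 CPM in pure cancer, 201 ± 127 in mixed cancer, 2.27 ± 3.20 in mixed WT and 2.04 ± 0.295 in pure WT cells (SD, n = 2), and all cancer libraries lay above all WT libraries. Pure and mixed cancer cells overlapped, as did pure and mixed WT cells.

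Wfdc2 encodes a secreted protein with WAP (whey acidic protein) domains, made by airway and other foregut epithelia, and lies on chromosome 2 (164562413 to 164568510, plus strand). It had 25.6 and 36.5 CPM in pure WT (28 and 65 reads) and 118 and 95.2 CPM in mixed WT libraries (9 and 42 reads). Cancer libraries had 2152 and 3370 CPM when pure (410 and 1126 reads) and 2253 and 3361 CPM when mixed (11512 and 648 reads). The order was mixed cancer (2807 ± 784 CPM) and pure cancer (2761 ± 861), which overlapped, then mixed WT (107 ± 16.1) and pure WT (31.1 ± 7.71, SD, n = 2), each apart from its neighbours. The log2 fold change upon mixing of WT cells was 1.72 (SE 0.48). In A04 every possible molecule barcode was used by Wfdc2, so barcode counts understate its level there.

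Mean levels in pure cancer cells were above those in pure WT cells for all 6 genes, but by very different amounts. Between pure cultures, where 9.95% of the tested genes were called in either direction, the log2 fold change of cancer over WT was 6.57 for Tff2 (SE 0.84), 6.46 for Wfdc2 (SE 0.52) and 4.24 for Tff1 (SE 0.50). It was 3.86 for Cwh43 (SE 0.89) and 3.65 for Ctse (SE 0.81). Without library A07 these were 2.21 and 1.51, and Tff2 was 5.35. Vsig1 had 1.16 (SE 0.95), with overlapping libraries, and ranged from 0.36 without A01 to 3.28 without A05. Barcode counts gave 4.53 for Wfdc2 and 3.17 for Tff1. Over all tested genes the median was -0.05.

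In mixed cultures the same comparison set the genes apart. With 6.42% of all genes called, Tff2, Wfdc2 and Tff1 were higher in mixed cancer than in mixed WT cells, with log2 fold changes of 5.64 (SE 1.03), 4.76 (SE 0.50) and 2.56 (SE 0.49). Those of Ctse and Cwh43 were -0.92 (SE 0.70) and -0.62 (SE 0.76), and that of Vsig1 was near 0 (SE 0.80). Both mixed cancer libraries lay below both mixed WT libraries for Ctse, whereas those of Cwh43 and Vsig1 overlapped. In barcode counts the values were 1.36 for Tff1, 2.94 for Wfdc2 and 0.05 for Cwh43. Without A06 they were 3.56 for Tff1 and 1.10 for Vsig1, and Tff2 had no mixed WT read left.

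None of the 6 genes was called in cancer cells upon mixing, the comparison that the selection did not use. All 6 had an adjusted p of 1 (edgeR quasi-likelihood test, Benjamini-Hochberg over 5264 genes), where 0 genes (0%) were called in all, 69 had an unadjusted p under 0.05, and DESeq2 also called 0. The log2 fold change was 0.40 for Ctse (95% interval -1.06 to 1.85), 0.37 for Cwh43 (-1.22 to 1.95) and 1.05 for Vsig1 (-0.89 to 3.00). It was -0.43 for Tff1 (-1.34 to 0.48), -0.10 for Tff2 (-1.38 to 1.18) and 0.02 for Wfdc2 (-0.82 to 0.86). Both mixed libraries were below both pure libraries for Tff1, and the libraries of the other 5 genes overlapped. The interval was narrowest for Wfdc2 and widest for Vsig1. The intervals of Ctse and Cwh43 did not reach the values seen in WT cells, but the comparisons share a fit and the difference between them was not tested.

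**Figure D2:**
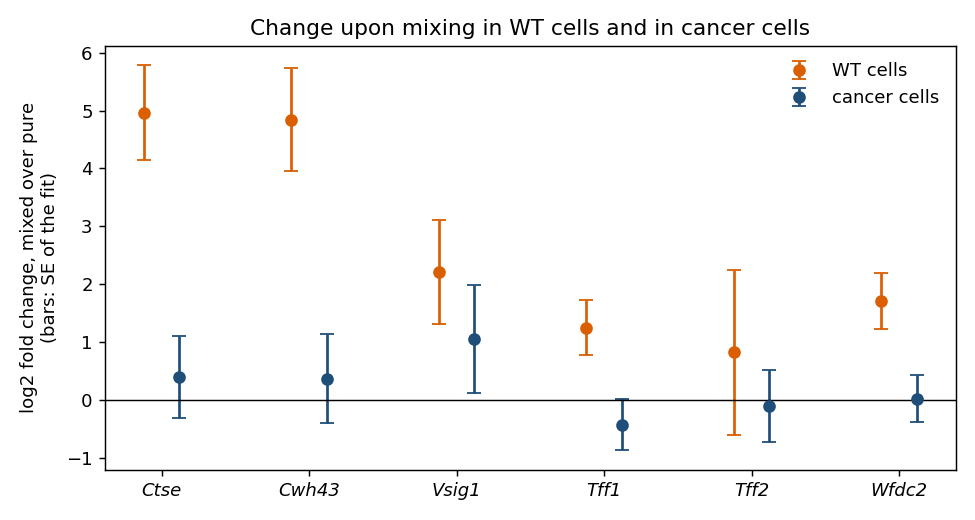
Log2 fold change of mixed over pure cells in the WT line and in the cancer line for each of the 6 genes, with bars for the SE of the edgeR fit over 8 libraries. Values of Ctse and Cwh43 in WT cells are 4.96 and 4.84, and those in cancer cells lie between -0.43 and 1.05 for all 6 genes.

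Because both lines shared a culture before sorting, the excess of mixed over pure WT cells was set against the level in mixed cancer cells. The excess of Ctse equalled 176% of the mixed cancer level (157% for A02 and 194% for A06), and that of Cwh43 129% (95.7% and 162%). The genes high in cancer cells gave smaller shares, 8.48% for Tff1 (1.67% and 15.3%), 2.69% for Wfdc2 (3.10% and 2.28%) and 0.113% for Tff2, the mean of -1.02% and 1.24% on 0 and 2 reads. Vsig1 lay between them at 62.0% (25.1% and 98.8%). Aqp5, a water channel at 199 to 648 CPM in the cancer libraries, had 1 read in each mixed WT library (13.1 and 2.27 CPM). The part of cancer RNA in the mixed WT levels of Tff1 and Wfdc2 was not tested.

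Within a library, depth cancels from the ratio of reads of 2 genes. For each Ctse read there were 0.818 and 0.538 Wfdc2 reads in the mixed WT libraries, against 3.5 and 10.8 in pure WT, 137 and 31.3 in pure cancer and 30.9 and 32.4 in mixed cancer libraries. Ctse reads thus outnumbered Wfdc2 reads in the mixed WT libraries only, but in A02 by just 11 to 9. In molecule barcodes the order in A02 was the reverse, with 3 for Ctse and 6 for Wfdc2, while A06 had 33 and 26. Tff1 reads per Ctse read came to 0.636 and 1.32 in mixed WT libraries and lay between 8.35 and 99.3 in the other 6. In pure cancer library A03 both ratios rest on 3 Ctse reads. In bulk libraries, fewer cells of a type and less RNA per cell cannot be told apart.

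**Figure D3:**
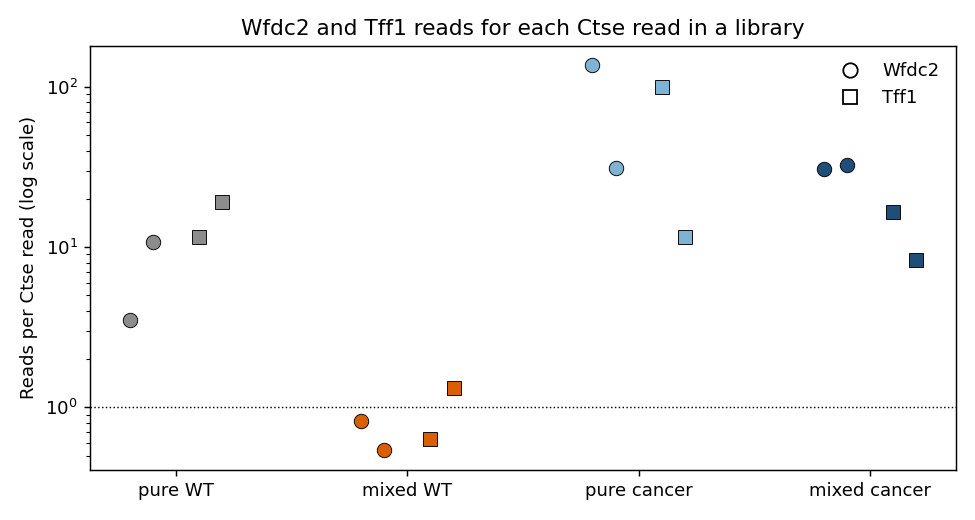
Reads of Wfdc2 (circles) and Tff1 (squares) for each Ctse read of the same library, on a log axis, by group, with a dotted line at 1 read per read. Mixed WT libraries lie between 0.538 and 1.32 and the other libraries at 3.5 or above.

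The trefoil family showed both directions within a single gene cluster. Tff3, the goblet cell member, lies 11402 bases from Tff2, which lies 17112 bases from Tff1, and the 3 genes together span 39972 bases of chromosome 17. Tff3 had 1883 and 1798 CPM in pure WT and 1403 and 2730 CPM in mixed WT libraries, but 5.25 and 8.98 CPM in pure cancer and 3.33 and 15.6 CPM in mixed cancer libraries (4 and 20 reads in all). It was lower in cancer than in WT cells when pure (log2 fold change -7.91, SE 0.71, adjusted p = 9.3e-08, edgeR) and when mixed (-8.77, SE 0.71, adjusted p = 1.2e-08, edgeR), and was not called upon mixing of WT cells (0.18, adjusted p = 0.94, edgeR). Each WT library had between 11.7 and 27.8 Tff3 reads per Tff1 read, and each cancer library at most 0.018. Tff1 and Tff2 shared a Pearson r of 0.94 over the 8 libraries, and no window of 50 bases in the last 500 bases of the longest transcript of Tff1, Tff2 or Tff3 was shared with another gene.

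Of 32 further gastric and foregut genes, 24 were listed and 9 passed the filter. In mixed against pure WT cells 1 of the 9 was called, beside 0.741% of all tested genes. This was Anxa10, an annexin known from gastric epithelium. The median log2 fold change of the 9 was 0.70 beside -0.10 over all genes. Anxa10 had 139 and 67.4 CPM in pure WT and 1337 and 1312 CPM in mixed WT libraries. Both mixed libraries were thus higher (log2 fold change 3.69, SE 0.51, adjusted p = 0.00043, edgeR). The gene list was chosen with earlier results of these data known, so this p-value is no independent support. Under the alternatives the value of Anxa10 ranged from 2.88 in barcode counts to 4.31 without A01. Unlike Ctse and Cwh43, it was at 0 to 5.25 CPM in the cancer libraries. The 16 mixed cancer reads put it lower than in mixed WT cells (log2 fold change -8.80, SE 0.72, adjusted p = 1.2e-08, edgeR), and the 2 pure cancer reads at 0.0402 times pure WT (95% counting interval 0.00485 to 0.147, adjusted p = 0.00029, edgeR).

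**Figure D4:**
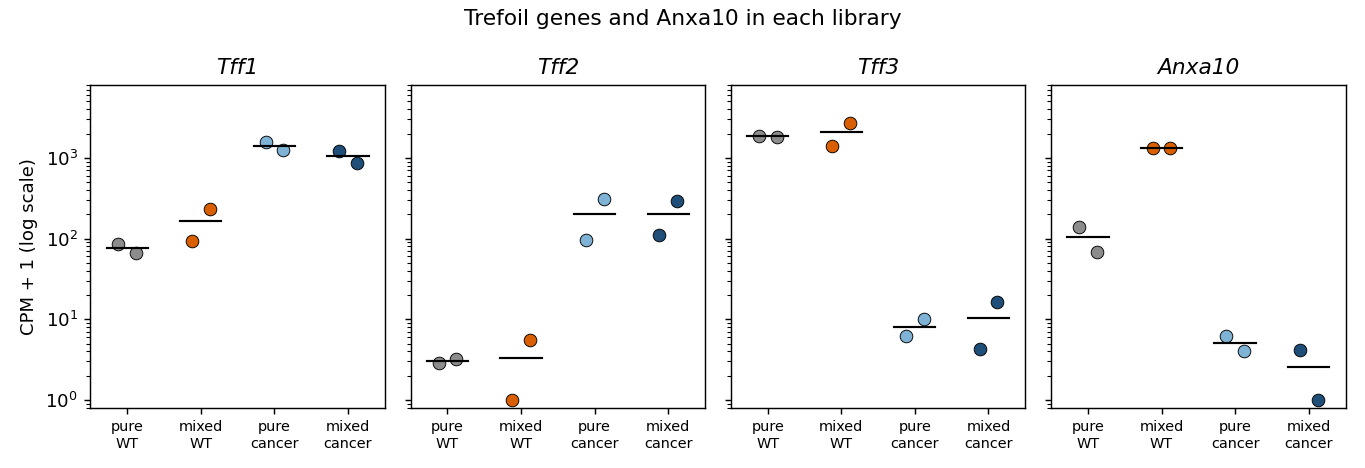
Level of Tff1, Tff2, Tff3 and Anxa10 as CPM + 1 on a log axis by group, where each point is a library and the line is the mean of 2. Tff3 is opposite to Tff1 and Tff2 between lines, and Anxa10 is highest in the 2 mixed WT libraries, at 1337 and 1312 CPM.

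Cancer cells differed from WT cells in 6 of these 9 genes in each setting, 2 higher and 4 lower. Over all tested genes 5.11% were called higher and 4.84% lower in pure cultures, and 2.01% higher and 4.41% lower in mixed cultures. The median log2 fold change of the 9 was -1.85 in pure and -1.20 in mixed cultures, beside -0.05 and 0.12 over all genes. Aqp5 was higher in pure cancer cells by a log2 fold change of 7.54 (SE 0.79, adjusted p = 8.0e-07, edgeR), and its 2 mixed WT reads left mixed cancer cells at 77.7 times their level (95% counting interval 21.5 to 643, adjusted p = 2.6e-05, edgeR). Krt7, a keratin of simple ducts and foregut epithelium, was at 3191 to 3818 CPM in cancer and at 420 to 1441 CPM in WT libraries (log2 fold change 2.78 pure and 1.57 mixed, adjusted p = 5.3e-05 and 0.014, edgeR). In barcode counts Krt7 was called in neither setting, at 2.20 and 0.22, with every barcode used in A04. In mixed cells it was also not called in transcript counts (1.09) or without A02 (1.32).

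The lower genes in both settings were Anxa10, the ghrelin gene Ghrl and Dmbt1, a secreted mucosal scavenger protein. Dmbt1 had 874 and 1436 CPM in pure WT and 433 and 2003 CPM in mixed WT libraries, and 0 to 5.99 CPM in the cancer libraries (adjusted p = 1.2e-06 pure and 9.4e-08 mixed, edgeR). Ghrl had no read in pure cancer cells and was at least 12.1-fold higher in pure WT cells, taking a floor of 3 reads over the group, and it had 1 read in mixed cancer cells (0.00488 times mixed WT, 95% counting interval 0.000118 to 0.0305). The edgeR adjusted p of Ghrl was 0.0082 and 0.0051, but DESeq2 called it in neither setting, and the calls were lost without A05 and without A04. Gata4, a transcription factor of the proximal gut, was lower in pure cancer cells (-3.19, SE 0.85, adjusted p = 0.016, edgeR), a call lost without A03 or A05. Gkn3, a gastrokine of the gastric antrum, was lower in mixed cancer cells (-3.41, SE 1.00, adjusted p = 0.041, edgeR), but it rested on the 41 reads of A06 and was 5.81 without that library, and the call was also lost without A04 (-2.53), without A05 (-3.11) and with DESeq2. Psca and Foxq1 were tested and not called in any comparison.

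Other listed genes of gastric cells, named here after their values were seen, differed widely in reads. Muc5ac, Muc6, Pga5, Cblif, Atp4b, Kcne2, Sox2 and Gast are not listed in the table under these symbols. Gkn1, Gkn2, Cldn18, Pgc, Gif, Atp4a, Capn8 and Pdx1 had at most 8 reads in any library. Muc1 and Slc26a9 reached 62 and 55 reads in A04, the deepest library, and Gkn3 reached 251 reads (141 CPM) in A05.

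Of 9 tested relatives of the 6 genes, none was called in WT cells upon mixing, beside 0.741% of all genes. Their log2 fold changes ran from -0.86 for Vsig10 to 1.68 for Bace1, beside a median of -0.10 over all genes. Those of Gpa33, F11r, Bace2 and Tff3 lay between 0.02 and 0.18. Only Cxadr had both mixed WT libraries above both pure WT libraries, and only Vsig10 had both below. Among 3 tested aspartic proteases, Bace1 was higher in pure cancer than in pure WT cells (log2 fold change 4.94, SE 1.04, adjusted p = 0.0026, edgeR), a call lost without A01. Of the genes of GPI anchor lipid remodeling listed with Cwh43, only Tmem8 was tested, and it was lower in cancer cells (-3.59 pure and -3.41 mixed, adjusted p = 0.038 and 0.027, edgeR). The call of Tmem8 in pure cells was lost without any 1 of the 4 pure libraries, and that in mixed cells without A01, A04, A05 or A08. It was also lost with DESeq2 in pure cells, and in mixed cells in the fit of only the 4 libraries compared. None of 4 tested relatives of Vsig1 was called, Gpa33 having the highest mean count, and none of the WAP genes listed with Wfdc2 passed the filter.

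Of 11 epithelial markers 4 were lower in pure cancer cells (Cdx1, Cdh17, Fabp2, Lgals4) and 7 in mixed cancer cells (these with Cdx2, Krt8 and Krt20), beside the 4.84% and 4.41% of all genes called lower. Epcam, Vil1, Cdh1 and Krt18 were not called in either setting, and Krt18 was above pure WT in both pure cancer libraries (log2 fold change 1.25, and 0.56 between mixed lines). In barcode counts Lgals4 in pure cells (-1.13) and Krt8 in mixed cells (-1.66) were not called. Every possible barcode was used by Lgals4 in A05 and by Krt8 in A04 and A06, so these counts understate their levels there. Without A06 the mixed calls of Cdx1, Cdx2, Cdh17, Krt8 and Krt20 were lost, and without A04 those of Cdx2, Krt20 and Fabp2. The call of Cdh17 was lost without A08 in mixed cells, and without A03, A05 or A07 in pure cells. It was also lost in both settings at a minimum count of 50, and in mixed cells in the fit of only the 4 libraries compared. Cdx1 was at least 47.2-fold higher in pure WT than in pure cancer cells, against the floor of 3 reads. The goblet genes Tff3, Fcgbp, Zg16 and Agr2 and the Paneth genes Lyz1, Ang4 and Itln1 were lower in cancer cells in both settings, and Mmp7 was higher. Spink4, also of goblet cells, was not called, at 633 CPM in pure WT and 954 CPM in pure cancer cells (log2 fold change 0.59), and at 529 CPM in mixed WT and 616 CPM in mixed cancer cells (0.22). Upon mixing of WT cells none of the epithelial, goblet or Paneth markers was called. Summed Paneth levels were 2157 and 4195 CPM in pure WT and 918 and 1507 CPM in mixed WT libraries, and those of goblet markers 2959 and 3034 and then 2910 and 3953 CPM. Their part in the Ctse and Cwh43 values was not tested.

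Ctse is also made by some immune cells, whose defining markers were not listed, apart from Cd68 and C1qa. Cd68 had 0 and 1 read in the mixed WT libraries and C1qa none. In pure cancer cells Cd68 was higher than in pure WT cells (log2 fold change 5.52, adjusted p = 0.015, edgeR), but all 23 reads were in A07, and it was -3.04 without that library. A07 also held most pure cancer reads of Ctse and Cwh43, and the part of other cells in these was not tested.

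As a check of the cancer line, 8 Wnt targets raised by Apc loss were tested. In pure cells 4 of the 8 were above and 4 below their WT level, and in mixed cells all 8 were above. Nkd1 and Notum were called higher in cancer cells in both settings, and Axin2 and Tnfrsf19 in mixed cells. Over all genes 5.11% were called higher in pure and 2.01% in mixed cultures. Ascl2 was called lower in pure cancer cells, beside 4.84% of all genes. Mean Axin2 was 115 CPM in pure WT and 10.2 CPM in mixed WT cells, and 60.7 and 195 CPM in pure and mixed cancer cells. The mixed calls of Notum and Tnfrsf19 were lost without A06, and that of Ascl2 without any 1 of A01, A03, A04, A05, A07 and A08. The Ascl2 call was also lost without a filter, at a minimum count of 50 and with DESeq2. Of the targeted genes Apc was too low to test, with at most 22 reads. Trp53 was lower in pure cancer cells (-2.56, adjusted p = 0.032, edgeR), a call lost without A03 or A05 and at a minimum count of 50. Reads at the 3' end do not show these alleles.

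Among tested genes with a mean of at least 50 reads, those most like Ctse over the 8 libraries (Pearson r of log2 CPM) were B4galt1, a galactosyltransferase (0.93), Myo1c, a class I myosin (0.93), Mboat1, a phospholipid acyltransferase (0.92), Nfkbia, an inhibitor of NF-kB (0.92), and Bhlhe40, a transcription factor (0.90). Bhlhe40 had a log2 fold change of 2.21 from pure to mixed WT cells. This is a description without a test, because likeness to Ctse favors genes that are higher in mixed WT cells. Those most like Tff1 were Sepw1, a selenoprotein (0.98), Tpm4, a tropomyosin (0.98), Gm12603, a predicted gene (0.98), Me1, malic enzyme (0.97), and Ptrf, a caveolar protein (0.97). Libraries of a group are alike by design and differ in depth, so these values only order the genes. With Spearman's rho 1 of the 5 genes stayed in the top 5 for Ctse and 0 for Tff1. Among the 6 genes themselves, Tff1 was most like Wfdc2 (0.96) and Tff2 (0.94), and Ctse was most like Cwh43 (0.97) and then Vsig1 (0.60).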

How the data were processed

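RNA of sorted cells was made into CEL-Seq libraries and sequenced in bulk. The authors aligned read 2 to the mm10 RefSeq transcriptome with BWA, discarded reads with equally good hits, and counted reads with featureCounts. As deposited, the read counts of each gene are raw. The authors also deposited counts of different molecule barcodes and expected counts of transcripts estimated from the barcodes. Their DESeq2 1.22.2 table of mixed against pure WT (fold changes and p-values) was not used. Groups follow the labels. Left out were 2 entries for foreign sequences, eGFP and a spike-in.

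Read counts were compared with edgeR 4.0.16 in R 4.3.3 (filterByExpr at a minimum count of 10, TMM, 1 quasi-likelihood fit of 8 libraries), with Benjamini-Hochberg adjustment. The fit was checked on simulated data. The members, the gene lists and the tests were chosen with earlier results of these data known. Genes named are the 6 members, each listed gene called in any comparison or, failing that, the one with the highest mean count, the 5 most like Ctse and the 5 most like Tff1, and Apc and Trp53. A further allele of the cancer line and its gene are not reported here. Other genes named (untested or uncalled list members) were chosen after their values were seen. Lists hold gastric and foregut genes, relatives of the members, and markers of intestinal, goblet, Paneth, immune and stromal cells and of Wnt signaling. Positions came from GENCODE vM21 (GRCm38, the build of mm10) and promoters from RefSeq. Alternatives were barcode or transcript counts (rounded), other scaling factors or filters, the 4 libraries compared, each library left out and DESeq2 1.42.0. A block by quartet of library codes was added after seeing the data.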

Additional observations from a re-analysis of the deposited data

Results flagged for a closer look

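In these libraries Tff1 was higher in WT cells and lower in cancer cells upon mixing. Both mixed WT libraries were above both pure WT libraries (log2 fold change 1.25), and both mixed cancer libraries were below both pure cancer libraries (-0.43). The margin in WT cells was narrow, with 91.8 CPM on 7 reads in mixed library A02 and 84.2 CPM in pure library A01. Gata4 was also opposite, lower in both mixed WT libraries (-0.76) and higher in both mixed cancer libraries (1.23). The difference between lines was not tested for either gene. Such patterns were not looked for among all named genes, and their share over all genes was not counted. Axin2 and Ascl2 were also lower in both mixed WT libraries (-2.87 and -1.87) and higher in both mixed cancer libraries (1.61 and 1.25). Cxadr was higher in both mixed WT libraries (1.55) and lower in both mixed cancer libraries (-0.55). None of these values was called, and the difference between lines was not tested for these genes. Neither value of Gata4 was called on its own (adjusted p = 0.80 in WT and 1 in cancer cells, edgeR), nor was that of Tff1 in cancer cells.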

How the results depend on the processing

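The 39 genes called in WT cells upon mixing (34 higher, 5 lower) became 93 in barcode counts (70 and 23), 82 in transcript counts, 68 without a filter (52 and 16), 108 in a fit of only the 4 libraries compared (85 and 23) and 66 with DESeq2. Leaving out a library gave 2 (without A06) to 118 (without A07). The 524 calls between pure lines became 232 at a minimum count of 50 and 261 (without A05) to 745 (without A02), and the 338 between mixed lines 151 and 167 (without A04) to 506 (without A07). In cancer cells upon mixing there were 0 under every alternative. The causes of these shifts were not tested.

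Of the values of the 6 genes under the alternatives, 357 moved by less than 1 SD or kept direction and call, and 31 moved by more. A further 10 changed sign in cancer cells upon mixing. Leaving out a library gave log2 fold changes there of -0.33 (without A03) to 2.50 for Ctse, -0.29 (without A03) to 1.95 for Cwh43, -0.84 to 1.07 (without A07) for Tff2 and -0.27 (without A03) to 0.43 for Wfdc2. Without A08 the value became -0.26 for Cwh43 and -0.23 for Wfdc2, and without A04 it became 0.50 for Tff2. It was -0.0041 for Cwh43 in transcript counts and -0.40 for Wfdc2 in barcode counts. Among listed genes Cd68 ranged from -3.04 (pure lines, without A07) to 6.38 and Gkn3 from -4.05 to 5.81 (mixed lines, without A06), and 57 called values lost their call. In WT cells upon mixing Ctse ranged from 3.79 to 5.56, Cwh43 from 3.52 to 5.05, Wfdc2 from 1.19 to 2.04, Vsig1 from 1.07 to 4.25, Tff1 from 0.22 to 1.61 and Tff2 from -4.47 to 1.05. Tff2 was below 0 there in barcode counts (-0.20) and without A06, which leaves no mixed WT read. Between mixed lines Cwh43 was above 0 in barcode counts (0.05) and Vsig1, near 0, in 8 of 16 alternatives. Cwh43 was not tested at a minimum count of 50.

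No label ties a library to another, so libraries were not paired. A replicate block of A01 to A04 and A05 to A08 was added after seeing the data. Deviations from the group means within these quartets correlated at 0.0443 to 0.211. The block gave 119 calls in WT cells upon mixing (87 higher, 32 lower) and turned Tff2 in cancer cells upon mixing to 0.037. No listed gene that was called in the main fit lost its call with the block. Whether named genes gained a call with it was not checked. The block moved the counts of the other comparisons by less than 1.5 times.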
